A study of Mus musculus with 24 samples.

Results

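Accessible chromatin was described at 10 of the 21938 protein-coding genes of GENCODE release M21: Dnmt1, Dnmt3a, Dnmt3b, Uhrf1, Tet1, Tet2, Tet3, Setdb1, Trim28 and Ehmt2. The genes were chosen for their roles in DNA methylation and in silencing through methylated histone H3 lysine 9 (H3K9). Earlier results of these data were known when they were chosen. Every deposited peak and every deposited differential site that touched one of these genes, or the 20 kb on either side, was counted. This gave 719 peaks over 11 lists and 117 of the 80166 sites of 3 tables.

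ATAC-seq, in which the Tn5 transposase cuts open DNA and leaves sequencing adapters, gave 24 libraries from sorted bone marrow cells of C57BL/6 mice. The question was what happens to open chromatin once Daxx, a histone H3.3 chaperone, is removed. LT-HSCs (long-term haematopoietic stem cells) and 2 progenitor types, CMPs (common myeloid) and GMPs (granulocyte-monocyte), had 2 Daxx-WT (Daxx +/+ Cre +/-) and 2 Daxx-KO (Daxx F/F Cre +/-) libraries each, taken 3 weeks after tamoxifen in RosaCreER mice according to the methods. A further set of LT-HSCs, 3 Daxx-KO and 2 Daxx-WT libraries, was taken 3 days after induction (3 d.p.i.). KLS cells, a c-Kit+ Lin- Sca-1+ mix of stem and progenitor cells taken 3 weeks after induction (3 w.p.i.), comprised 3 Daxx-KO libraries, 2 Daxx-WT libraries and 2 from double knockouts (DKO), which were Daxx F/F and Pu.1 F/F and carried Cre +/-. Cre was present in every group, controls included. The floxed segment of Daxx ran from exon 2 to exon 7, and male and female mice, most of them 5 to 11 weeks old at induction, served as donors. For genomic work at 3 d.p.i. the methods give tamoxifen in RosaCreERT2 mice. For the cross of Daxx with Pu.1, and for the RNA-seq of KLS cells at 3 w.p.i., they give Mx1Cre, an interferon-inducible Cre activated by pI:pC. Both 3 d.p.i. controls are labelled Daxx +/+, whereas a legend of the study lists 1 of them as Daxx +/F. The study calls the libraries of a group biological replicates, and the labels do not tie them to single mice.

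DNA methylation at CpG dinucleotides is copied after replication by DNMT1, which UHRF1 brings to hemimethylated DNA, and is laid down anew by DNMT3A and DNMT3B. The TET enzymes oxidise 5-methylcytosine and so open the way to its removal. SETDB1, recruited through the corepressor TRIM28, and EHMT2, also known as G9a, methylate H3K9 and hold retroelements and other loci silent. In haematopoietic stem cells, loss of Dnmt3a or Tet2 is known to favour self-renewal over differentiation.

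The deleted genes were examined first. The sites that began over Daxx exon 1, 2 or 6 were lower in every Daxx-KO or DKO library than in every Daxx-WT library of the same table. At exon 6 the highest scaled value was 13.4 in the Daxx-KO and 8.43 in the DKO libraries of KLS cells, while the lowest of the Daxx-WT libraries was 53.9 and 44.97 in these tables. A site over exon 8, outside the floxed exons, was higher in DKO (61.5 and 80.6 against 37.3 and 35.1). The site over exon 5 of Spi1, the gene that encodes Pu.1, held 2.12 and 4.68 scaled reads in DKO against 31.1 and 58.1 in Daxx-WT. The 4 other listed sites at Spi1 were higher in DKO, among them 1 over exon 3 with 142 and 123 against 54.1 and 60.3. In the table headers, libraries had 4.21 to 16.0 reads per 600-bp window on average. Stem and progenitor markers had a promoter peak for 6 to 9 of 10 genes in every list, with Ly6a, which encodes the sorting antigen Sca-1, at none. Granulocyte and monocyte progenitor markers had one for 6 to 8 of 8 genes in CMPs and GMPs and for 2 to 4 of 8 in LT-HSCs and KLS cells. Among markers of other cells, a promoter peak was found for 1 to 3 of 4 B-cell genes, 2 of 3 T-cell genes, 1 to 3 of 4 erythroid genes and 1 to 3 of 4 neutrophil genes, with Cd79a, Cd3e, Hba-a1 and Ly6g at none in every list. Their part in the results was not tested.

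At Tet1 and Dnmt3a the DKO list lacked the peak over a promoter, and both DKO libraries had fewer reads at sites there. The sequences that follow come from the Tet1 promoter and from the peak over the internal Dnmt3a promoter. Another lies at a peak in Tet1 intron 1 that was also missing from the DKO list. The last lies at a Tet3 intron 5 peak that was lower in DKO KLS cells. The Dnmt3a window, named for the internal promoter, lies at the peak summit, downstream of the start sites at chr12:3891728-3891744. All sequences are reference bases of GRCm38 (the build that mm10 denotes), 5′ to 3′ along the strand of the gene. Capitals mark CG in the Tet1 promoter window, the 300 bases before the start sites at 21.5 kb, and the letters GGAAGT on either strand (ACTTCC when read from the other strand) in the other windows, each of which is the 300 bases around the summit of a Daxx-WT KLS peak. GGAAGT holds the GGAA core of ETS factors, the family to which Pu.1 belongs, and a match is a description, not a binding site.
Tet1 promoter, chr10:62887513-62887812, minus strand: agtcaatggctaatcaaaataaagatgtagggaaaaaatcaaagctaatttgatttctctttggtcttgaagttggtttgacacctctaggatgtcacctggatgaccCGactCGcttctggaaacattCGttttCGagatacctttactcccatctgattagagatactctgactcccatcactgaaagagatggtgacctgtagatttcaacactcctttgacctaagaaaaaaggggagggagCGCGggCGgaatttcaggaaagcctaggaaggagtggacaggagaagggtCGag
Tet1 intron 1, chr10:62891054-62891353, minus strand: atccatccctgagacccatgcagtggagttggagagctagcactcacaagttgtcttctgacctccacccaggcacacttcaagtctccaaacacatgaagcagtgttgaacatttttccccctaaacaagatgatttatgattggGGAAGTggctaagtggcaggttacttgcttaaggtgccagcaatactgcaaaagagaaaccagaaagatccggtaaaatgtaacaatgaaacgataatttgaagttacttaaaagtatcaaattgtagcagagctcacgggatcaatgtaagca
Dnmt3a internal promoter, chr12:3892703-3893002, plus strand: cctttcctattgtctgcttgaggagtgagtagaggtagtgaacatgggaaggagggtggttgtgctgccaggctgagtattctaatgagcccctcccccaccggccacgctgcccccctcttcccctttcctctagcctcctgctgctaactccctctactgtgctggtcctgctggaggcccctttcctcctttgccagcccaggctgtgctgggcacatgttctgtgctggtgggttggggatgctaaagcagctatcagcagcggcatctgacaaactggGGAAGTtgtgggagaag
Tet3 intron 5, chr6:83381721-83382020, minus strand: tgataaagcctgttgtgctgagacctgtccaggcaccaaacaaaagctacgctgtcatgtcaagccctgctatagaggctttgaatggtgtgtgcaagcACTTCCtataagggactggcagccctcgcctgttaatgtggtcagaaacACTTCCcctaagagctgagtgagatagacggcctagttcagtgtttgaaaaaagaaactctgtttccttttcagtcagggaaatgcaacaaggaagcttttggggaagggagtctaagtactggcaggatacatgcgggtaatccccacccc
The Tet1 promoter window held 8 CG dinucleotides and the other windows 3 or 4. Most of the Tet1 promoter window lies upstream of its Daxx-WT KLS peak (chr10:62885825-62887551). The other windows are centred on peak summits, so its counts are not matched to theirs. GGAAGT occurred at 1 place in the Tet1 intron window and in the Dnmt3a window and at 2 places in the Tet3 window, and not at all in the Tet1 promoter window.

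A promoter peak, defined as a peak within 1000 bp of an annotated start site, was present at 10 of 10 genes in 10 of the 11 lists and at 8 of 10 in the DKO list, which lacked one at Tet1 and at Ehmt2. Over all protein-coding genes the share with a promoter peak was 67.8% and 68.9% in the Daxx-WT and Daxx-KO LT-HSC lists, 65% and 61.7% in CMPs, 62.9% and 60.4% in GMPs, 62.3% and 64.5% in the LT-HSC lists of 3 d.p.i., 58.7% and 62% in KLS cells and 51.1% in DKO KLS cells. The authors deposited 1 list per group, so presence and width carry no spread between libraries. The DKO list was also the shortest, with 22156 peaks against 33325 to 70455 in the others. With the KLS lists reduced to that number of peaks, ranked by fold enrichment, a promoter peak remained at 8 of 10 genes in Daxx-WT, 5 in Daxx-KO and 8 in DKO. Of 46 other genes of DNA methylation and H3K9 silencing, 44 to 46 had a promoter peak in each list. Zfp57 was without one in 4 lists, Dnmt3l in the Daxx-WT KLS list and Zbtb4 in the Daxx-KO GMP list, and none of the 46 lacked one in the DKO list alone.

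**Figure D1:**
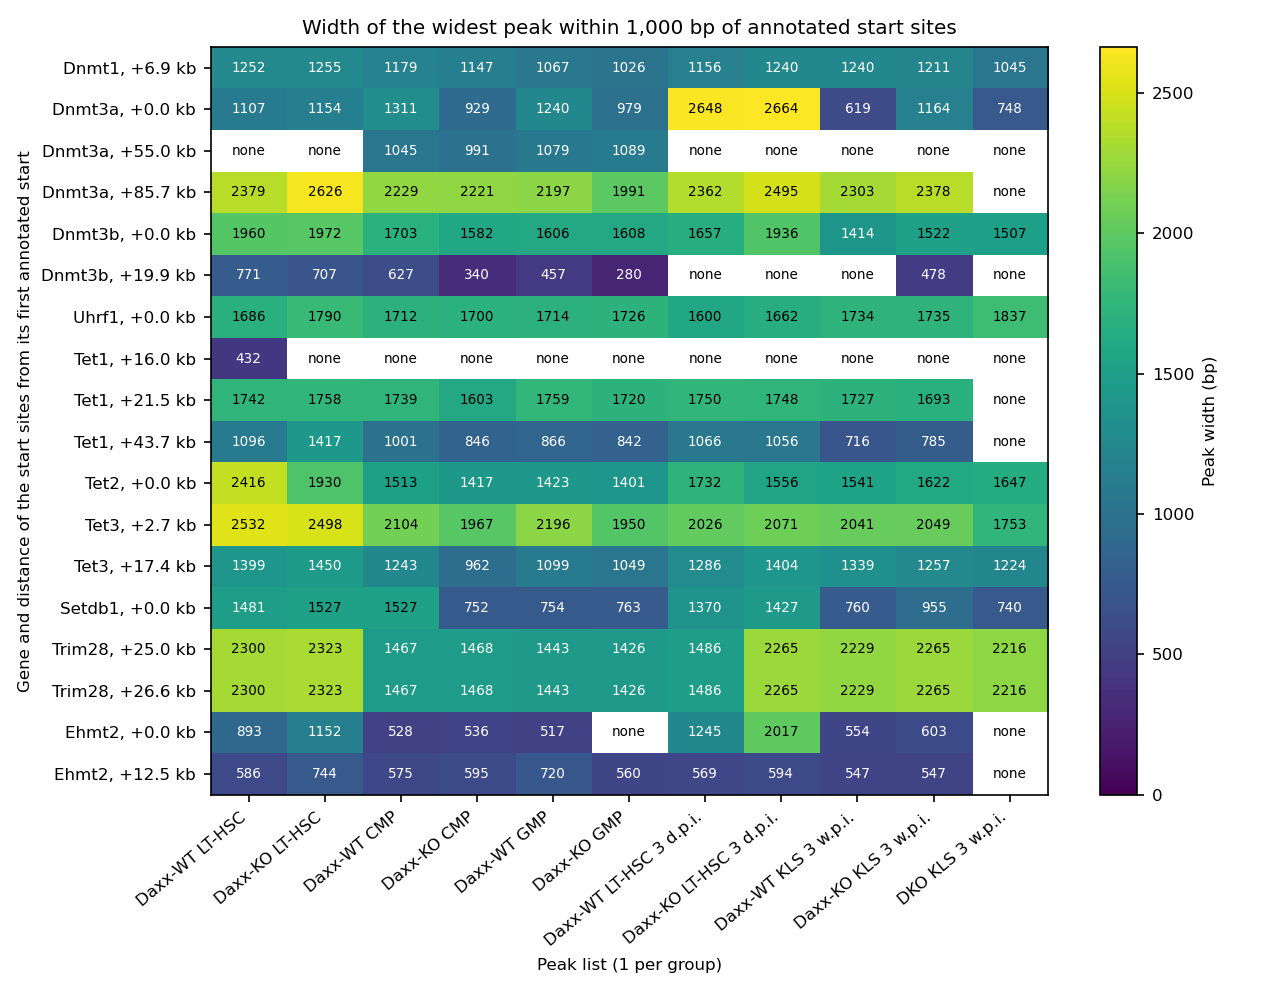
Width in bp of the widest peak within 1000 bp of annotated start sites of the 10 genes (rows, with the distance in kb of the start sites from the first annotated start of the gene) in the 11 peak lists (columns, 1 list per group), where "none" marks the absence of a peak. The DKO column has no peak at the Tet1 start sites at 21.5 and 43.7 kb, at both Ehmt2 positions and at the Dnmt3a start sites at 85.7 kb, whereas the widths at Dnmt1 and Uhrf1 stay between 1026 and 1255 bp and between 1600 and 1837 bp.

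The strength of a promoter peak was read as its fold enrichment, ranked within each of the 5 lists that give one (LT-HSCs at 3 d.p.i. and KLS cells). Dnmt1 had the strongest promoter peak of the 10 genes, at the 93.9th to 98.7th percentile of all peaks in those lists. In the Daxx-WT KLS list the peak at the first Ehmt2 start was at percentile 0.4, that at the second Ehmt2 position at 4.7, the Tet1 peak at 21.5 kb at 3.1, that at 43.7 kb at 55.2 and the internal Dnmt3a promoter peak at 28.5. Most promoter peaks missing from the DKO list were thus among the weaker peaks of the matched control list. At the 21.5 kb position of Tet1 and the internal promoter of Dnmt3a the reads, given below, were also lower, whereas no site was listed over the Tet1 peak at 43.7 kb.

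The 719 peaks merged into 104 regions, of which 31 were present in all 11 lists and 18 in a single list. Promoter regions of the 10 genes were 17 of the 104, and 22 distal regions lay in all lists. Distal here means away from the start sites of the gene itself, and most of these 22 were at the promoter of a neighbour. Of all regions, 22 were at the promoter of a neighbouring gene, so a peak within 20 kb of a gene is not necessarily its own element. The windows around the 10 genes, 0.983 Mb in all, held 39.7 to 85.4 peaks per Mb against 8.1 to 25.9 per Mb over the genome. The genome figures were not restricted to windows around genes, and whether the excess is particular to these 10 genes was not tested.

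The 3 tables compare Daxx-KO with Daxx-WT LT-HSCs (3 d.p.i.), Daxx-KO with Daxx-WT KLS cells, and DKO with Daxx-WT KLS cells. They held 12, 29 and 76 sites at the 10 genes. A site holds the read number of each library divided by a constant of that library, called scaled reads here. The authors listed a site only after it had passed a test on the same libraries, so at all 117 the groups did not overlap, as the listing favours. In the LT-HSC comparison 3 sites were higher and 9 lower in Daxx-KO, and over all of its sites 29.1% of sites were higher and 70.9% lower. Among KLS cells 1 site was higher and 28 lower in Daxx-KO, against 19.1% and 80.9% of all listed sites. In DKO KLS cells, 60 sites were higher and 16 lower, against 72.1% and 27.9% of all listed sites. A site was found at 6, 8 and 10 of the 10 genes, while 40.4%, 53.1% and 73.3% of protein-coding genes had one. The direction at these genes thus followed that of each table as a whole. Both KLS tables used the same 2 Daxx-WT libraries.

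**Figure D2:**
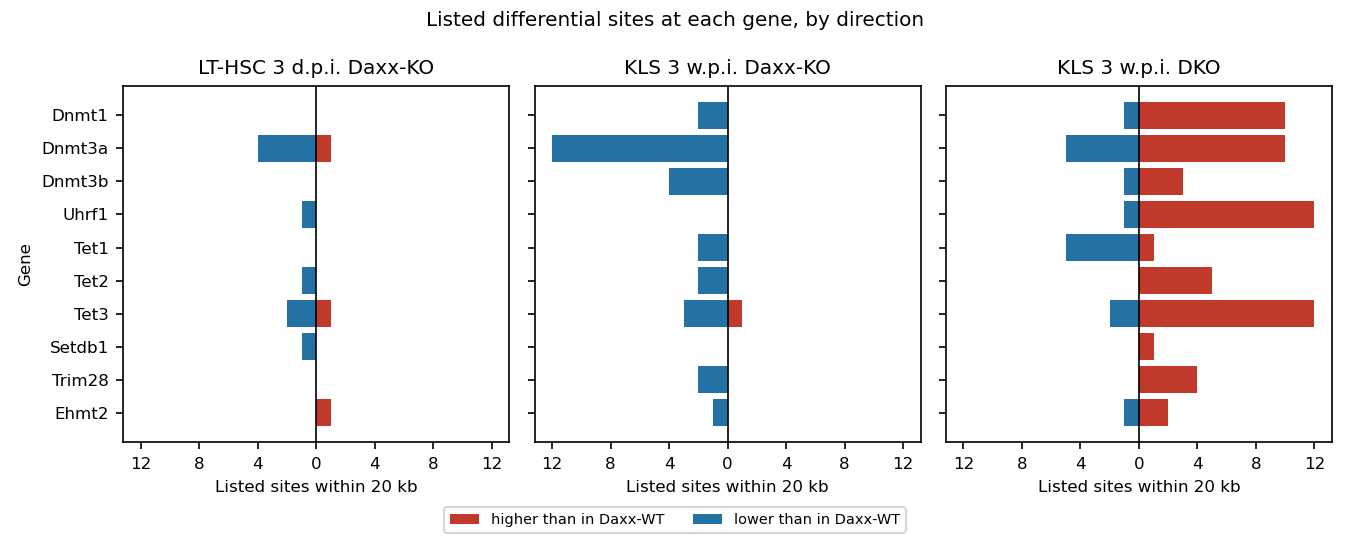
Number of listed sites within 20 kb of each gene in the 3 tables, drawn to the right where the Daxx-KO or DKO mean was higher than the Daxx-WT mean and to the left where it was lower. Dnmt3a has 12 lower sites in Daxx-KO KLS cells, and in DKO KLS cells Uhrf1 and Tet3 have 12 higher sites each while Tet1 has 5 lower and 1 higher.

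Listed sites were fitted again with limma on log2(scaled reads + 1), with p adjusted by Benjamini-Hochberg over all windows that the authors tested. This is no independent test, since the sites were listed from these libraries. No site of the LT-HSC table passed an adjusted p of 0.05 (0% of 11927 sites; smallest adjusted p 0.301) and none of the Daxx-KO KLS table did (0% of 17311; smallest 0.284). At an unadjusted p under 0.05 were 11 of the 12 and 29 of the 29 sites at these genes, against 96% and 96.8% of all listed sites. Limma with voom weights on the whole reads called 10 and 19 of them, against 67% and 66.2% of all. For DKO, 57 of the 60 higher sites passed, against 93.2% of all higher sites, and 9 of the 16 lower ones, against 53.6% of all lower sites. The standard error was 0.36 on the log2 scale for each DKO site, because limma gave all sites a common spread. The call rested on both DKO libraries: without either of them 0 sites passed, here and in the whole table, and without Daxx-WT library 1 or 2 the count was 38 or 51 of 76, where 51.5% or 70% of all listed sites passed.

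The DKO libraries had more scaled reads per window than their controls, at 10.6 and 14.9 against 7.39 and 8.19. When libraries were scaled to equal mean reads per window, the median listed site moved by -0.67 on the log2 scale, and 3 of 60 higher sites at these genes (9.04% of all higher sites) and 16 of 16 lower ones (96.6% of all lower sites) passed. No site at these genes changed its direction. The 3 higher sites that passed under both scalings were at Tet2, Dnmt1 and Trim28. In the LT-HSC and the Daxx-KO KLS table the same change moved the median site by 0.39 and 0.48, and 0 sites at these genes passed under either scaling. Over all sites, scaling to the mean let 0.259% of the higher and 0.071% of the lower LT-HSC sites pass, and 0% of the KLS sites.

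**Figure D3:**
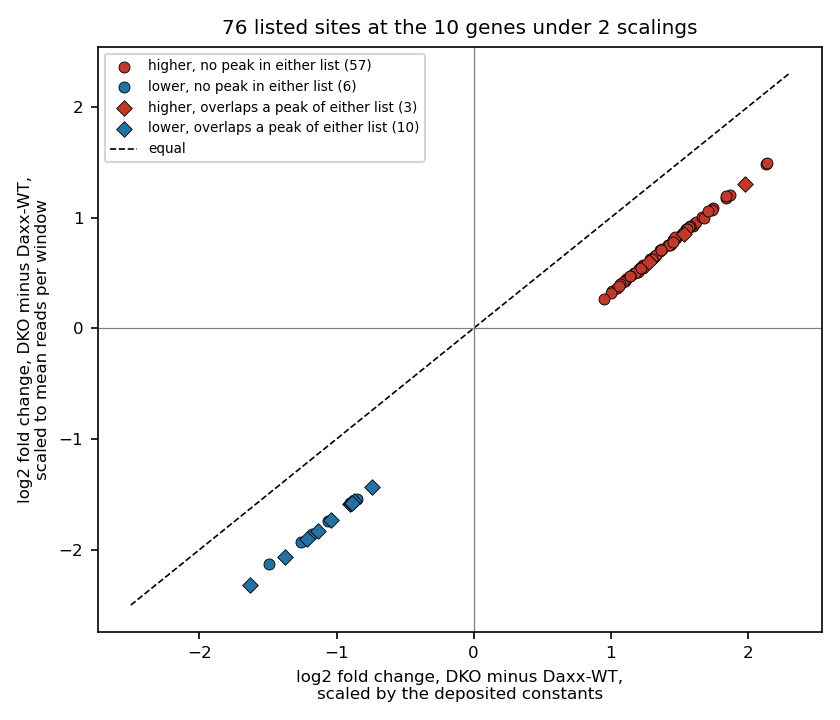
The 76 DKO sites at the 10 genes, with the log2 fold change (DKO minus Daxx-WT) under the deposited constants on the x axis and after scaling to mean reads per window on the y axis, coloured by direction and marked as diamonds where a peak of either group overlaps. All points lie below the dashed line of equal values, the higher sites between 0.27 and 1.49 and the lower ones between -2.32 and -1.43 on the y axis.

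Higher and lower DKO sites differed in kind. A peak of the DKO or the Daxx-WT list overlapped 3 of the 60 higher sites and 10 of the 16 lower sites, and over all listed sites the shares were 11.6% and 69.5%. The median Daxx-WT mean was 16.9 scaled reads at higher sites and 138.1 at lower sites. Of the 28 lower sites in Daxx-KO KLS cells, 0 overlapped a peak of either group (9.7% of all lower sites), with a median Daxx-WT mean of 33.1 scaled reads. The 2 LT-HSC sites with a peak were both higher in Daxx-KO, and none of the 9 lower sites had one (13.8% of all lower sites). Most DKO sites with fewer reads were thus peaks, and most of the other sites had few reads in the controls.

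Among the maintenance genes, Dnmt1 (chr9:20907209-20959888, minus strand) had a promoter peak of 1026 to 1255 bp in all 11 lists, over the start sites 6.9 kb inside the first annotated one. The region at 13.5 kb, in intron 1, was a peak in the 2 GMP lists alone. In DKO KLS cells 10 sites were higher and 1 lower. The largest, over exon 13 at chr9:20926401-20927200, held 31.8 and 46.8 scaled reads in DKO against 9.76 and 6.58 in Daxx-WT. It was 2.13 higher on the log2 scale (adjusted p = 7.51e-07, and 0.0139 after scaling to mean reads). The lower site at chr9:20973601-20974400 (25.4 and 33.7 against 61.2 and 74.6, -1.18, adjusted p = 0.0134) was at the promoter of S1pr2, a receptor for sphingosine 1-phosphate, and 2 of the higher sites also lay over that gene. Near the end of Dnmt1 the site over exon 36, at a start site of a short transcript, held 45.6 and 35.6 against 16.0 and 13.2 (1.41 higher, adjusted p = 0.0017, and 0.601 after scaling to mean reads), and that over exon 38 held 41.4 and 50.6 against 19.5 and 25.2 (1.01, adjusted p = 0.0518). Both Dnmt1 sites of the Daxx-KO KLS table were lower, and at the upstream one the 3 Daxx-KO libraries held 12.2, 8.75 and 2.82 scaled reads against 24.6 and 20.6 (-1.58, adjusted p = 0.38). No Dnmt1 site was listed at 3 d.p.i.

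Uhrf1 (chr17:56303321-56323486, plus strand) had a promoter peak of 1600 to 1837 bp in all lists, at the 78.4th to 85.0th percentile of fold enrichment. In DKO cells 12 sites were higher and 1 lower, as many higher ones as at Tet3. Most of the higher sites lay outside Uhrf1, over or near its neighbours Plin3, Arrdc5 and Kdm4b. The one nearest the start, in intron 2 at chr17:56305301-56305900, held 33.9 and 36.5 scaled reads in DKO against 16.9 and 8.77 (1.46 higher, adjusted p = 0.00118, and 0.572 after scaling to mean reads). The largest, at chr17:56296251-56297250, lay over the upstream neighbour Arrdc5 (34.99 and 75.9 against 13.3 and 16.4, 1.74 higher, adjusted p = 8.16e-05). The lower site, at chr17:56336751-56338300, overlapped a peak present in all 11 lists inside Kdm4b, an H3K9 demethylase gene downstream, and did not pass (113 and 133 against 199 and 213, -0.74, adjusted p = 0.357). At 3 d.p.i. the single site, in intron 13, was lower in Daxx-KO (9.18, 11.4 and 16.9 against 31.6 and 30.0, -1.27, adjusted p = 0.301). No site was listed in Daxx-KO KLS cells.

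Dnmt3a (chr12:3806007-3914443, plus strand), a de novo methyltransferase, carried the most sites of the 10 genes. Its first promoter had a peak in all lists, from 619 bp in Daxx-WT KLS cells to 2664 bp in Daxx-KO LT-HSCs at 3 d.p.i. The internal promoter at 85.7 kb, from which the shorter Dnmt3a isoform (Dnmt3a2) is transcribed, had a peak of 1991 to 2626 bp in 10 lists and none in the DKO list. A peak next to the start site at 55.0 kb was present in the 4 CMP and GMP lists, 991 to 1089 bp wide, and in no LT-HSC or KLS list.

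At the internal promoter both DKO libraries were lower. The site over its start sites, chr12:3891351-3892100, held 70.0 and 66.5 scaled reads in DKO against 135 and 189 in Daxx-WT, and fell by 1.21 on the log2 scale (adjusted p = 0.00998). Next to it, chr12:3892251-3893500, which holds the sequence shown above, had 76.4 and 102 against 229.9 and 230.3 and fell by 1.37 (adjusted p = 0.00249). Both passed also after scaling to mean reads (adjusted p = 0.0036 and 0.00274).

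Fewer DKO reads were also found at 3 sites in Dnmt3a introns. In intron 3, at chr12:3855751-3856850, a peak present in all 11 lists held 188 and 133 scaled reads against 395 and 308 (-1.14, adjusted p = 0.0187). In intron 4, at chr12:3870501-3871850, another peak of all lists held 209.96 and 165 against 367 and 317 (-0.87, adjusted p = 0.147), and the site at chr12:3868201-3868800 held 42.4 and 53.4 against 91.4 and 82.3 (-0.85, adjusted p = 0.167). The last 2 did not pass under the deposited constants and did so after scaling to mean reads (adjusted p = 0.0143 and 0.00815). The 10 higher DKO sites overlapped no peak, and the largest, in intron 1 at chr12:3828201-3829150, held 39.2 and 51.5 against 14.2 and 9.87 (1.84 higher, adjusted p = 2.68e-05, and 0.0662 after scaling to mean reads).

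All 12 Dnmt3a sites of the Daxx-KO KLS table were lower and none overlapped a peak. The largest difference was in intron 1, at chr12:3817951-3819000, with 18.9, 9.62 and 19.8 scaled reads in Daxx-KO against 42.0 and 49.3 (-1.50, SE 0.37, adjusted p = 0.284). None of the 12 passed. Dnmt3a alone of the 10 genes had lower sites within 1000 bp of a start site, as did 8.71% of protein-coding genes. It has 18 annotated start sites, and the share was not matched for their number. Of its 4 sites that close, that over exon 4 held 23.4, 10.5 and 18.8 against 42.0 and 43.6 (-1.30, adjusted p = 0.299), and the others differed by -0.97 to -1.37. Among them, the one over exon 13 at chr12:3899151-3899800 (14.5, 6.12 and 7.53 against 24.6 and 24.1, -1.37, adjusted p = 0.291), overlapped a site that was higher in DKO, chr12:3899451-3900150 (34.99 and 42.2 against 15.1 and 16.4, 1.23 higher, adjusted p = 0.00837, and 0.966 after scaling to mean reads). Both used the same Daxx-WT libraries, and the difference between the genotypes was not tested. The scaled reads per window of these libraries were 9.03, 3.98 and 5.27 for Daxx-KO, below the 7.60 and 8.61 of Daxx-WT in 2 of 3, and library 2 of Daxx-KO was the shallowest. The part of depth in these lower values was not tested beyond the scaling to mean reads, under which the 28 lower sites at the 10 genes kept their direction (-1.16 to -0.26). At 3 d.p.i., Dnmt3a had 4 lower sites and 1 higher. The higher one, over exon 10 at chr12:3896701-3897800, held 78.0, 77.3 and 84.4 against 38.3 and 45.01 (0.93, adjusted p = 0.304). The largest lower one, in intron 1 at chr12:3829501-3830450, held 15.6, 18.1 and 21.1 against 51.8 and 39.4 (-1.27, adjusted p = 0.301), and the one at a start site in intron 6 held 30.3, 19.1 and 29.6 against 46.2 and 59.1 (-0.99, adjusted p = 0.392). The DKO table also lists a higher site over exon 10 (34.99 and 43.1 against 15.1 and 17.6, 1.20 higher, adjusted p = 0.0107), whereas the Daxx-KO KLS table lists none.

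**Figure D4:**
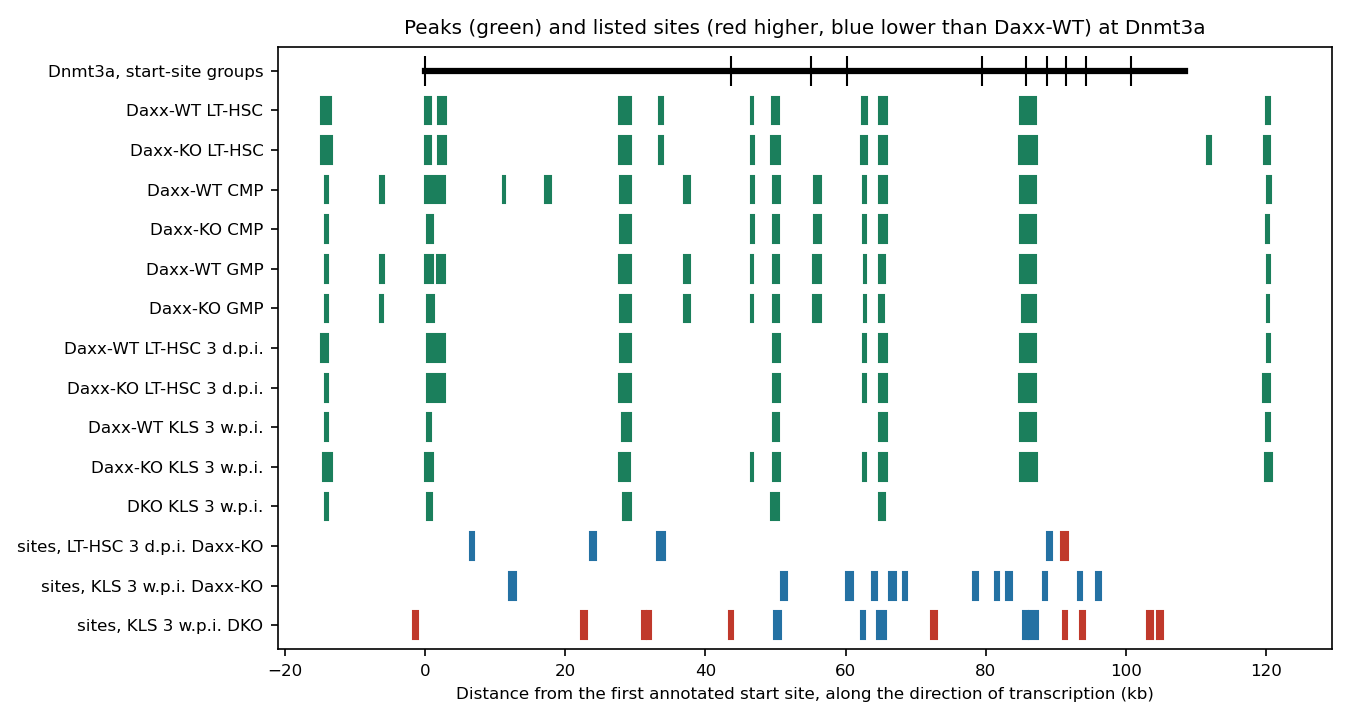
Dnmt3a drawn along the direction of transcription (x axis, kb from the first annotated start site), with its start sites as ticks, the peaks of each of the 11 lists in green, and the listed sites of the 3 tables in red (higher than Daxx-WT) or blue (lower). The peak at 85.7 kb is present in 10 lists and absent from the DKO list, and 2 blue DKO sites cover its place.

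Dnmt3b (chr2:153649450-153687730, plus strand), the other de novo enzyme, had a promoter peak of 1414 to 1972 bp in all lists. A second one, at an internal start site at 19.9 kb, was 280 to 771 bp wide in 7 lists and absent from both 3 d.p.i. lists, the Daxx-WT KLS list and the DKO list. In DKO cells the site at chr2:153638601-153639750, 10.3 kb before the start, overlapped a Daxx-WT peak that the DKO list lacked (76.4 and 62.8 against 130.5 and 129, -0.90, adjusted p = 0.12, and 0.0106 after scaling to mean reads). The largest of the 3 higher sites was over exon 3, at chr2:153660651-153661600 (45.6 and 57.2 against 17.8 and 9.87, 1.87 higher, adjusted p = 1.96e-05). All 4 Dnmt3b sites in Daxx-KO KLS cells were lower, the largest in intron 5 at chr2:153664201-153664800 (12.2, 4.37 and 10.3 against 20.98 and 35.5, -1.60, adjusted p = 0.292). A further one was at the start of the neighbouring paralogue Dnmt3c, and whether reads were shared between the paralogues was not tested.

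Of the TET genes, Tet1 (chr10:62804570-62908996, minus strand) was the gene with the most lower DKO sites against higher ones, at 5 to 1. The peak over its promoter at 21.5 kb was 1603 to 1759 bp wide in 10 lists, as steady a width as any, and missing from the DKO list. Over that promoter, chr10:62885951-62887950 held 133 and 160.2 scaled reads in DKO against 309.7 and 292 in Daxx-WT, and fell by 1.04 (adjusted p = 0.0414, and 0.00431 after scaling to mean reads). Leaving out any 1 of the 4 libraries ended this call, at log2 values from -0.90 to -1.18.

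The site upstream of it, in intron 1 at chr10:62890501-62891800, held 36.0 and 59.96 scaled reads against 155 and 137, and fell by 1.63 (adjusted p = 0.000236). Here the peak was present in the LT-HSC lists at both times and in the Daxx-WT and Daxx-KO KLS lists, and absent from the 4 CMP and GMP lists and from the DKO list. A site further upstream, chr10:62893301-62893900, held 18.0 and 27.2 against 43.5 and 51.6 and fell by 1.06 (adjusted p = 0.0345), and the Daxx-WT LT-HSC list alone had a peak there. The other lower sites, in intron 3, held 9.54 and 5.62 against 23.1 and 21.9 (-1.49, adjusted p = 0.000838) and 27.6 and 26.2 against 50.6 and 51.6 (-0.90, adjusted p = 0.118). The single higher site was 5.6 kb before the first start (42.4 and 69.3 against 17.8 and 29.6, 1.21 higher, adjusted p = 0.0106, and 1 after scaling to mean reads).

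The Daxx-KO KLS table had 2 lower Tet1 sites, both in intron 3 and without a peak, the larger with 13.4, 8.75 and 13.2 scaled reads against 32.8 and 36.7 (-1.51, adjusted p = 0.284). No Tet1 site was listed at 3 d.p.i. Neither Daxx-KO table lists a site over the Tet1 promoter or the intron 1 peak, and the Daxx-KO KLS list had both peaks, 1693 bp wide at the promoter against 1727 bp in Daxx-WT. Whether the DKO and Daxx-KO effects differ there was not tested, since a table gives no values at places it does not list.

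Tet2 (chr3:133463679-133545139, minus strand) had a promoter peak in all lists, 1401 to 2416 bp wide and widest in Daxx-WT LT-HSCs. The distal peaks were few, and none of the 6 distal regions was in all lists. The peak downstream of the gene, 81.9 kb from the start, was present in the 8 LT-HSC, CMP and GMP lists and in no KLS list. In DKO cells all 5 sites were higher, between 1.17 and 2.14 on the log2 scale, and none had a peak of either group. The largest in the DKO table at these genes was in Tet2 intron 2, at chr3:133488901-133489700, with 38.2 and 51.5 scaled reads against 7.10 and 12.1 (2.14 higher, adjusted p = 6.8e-07, and 0.0123 after scaling to mean reads). With Daxx alone deleted, both KLS sites were lower, the larger over exon 12 (5.57, 7.87 and 8.47 against 21.9 and 22.9, -1.51, adjusted p = 0.284), and the single site at 3 d.p.i., 13.1 kb before the start, was lower too (19.3, 7.64 and 8.45 against 30.4 and 29.1, -1.38, adjusted p = 0.362).

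Tet3 (chr6:83362373-83459084, minus strand) had peaks at both of its used promoters in every list, 1753 to 2532 bp wide at 2.7 kb and 962 to 1450 bp at 17.4 kb. It had the most regions, 17, of which 4 were in all lists. A pair of intron 3 sites were higher in DKO cells and overlapped DKO peaks. The one at chr6:83432101-83433750 held 119 and 121 scaled reads against 40.8 and 40.6, 1.53 higher (adjusted p = 0.000568, and 0.285 after scaling to mean reads), at a peak that was otherwise seen in the Daxx-WT GMP list alone. The other, chr6:83439651-83441000, was 632 bp from the start site at 17.4 kb and held 95.4 and 98.4 against 47.0 and 32.9 (1.28 higher, adjusted p = 0.00569, and 1 after scaling to mean reads). The largest Tet3 difference was just before the first start, at chr6:83459901-83460500 (25.4 and 42.2 against 5.32 and 13.2, 1.84 higher, adjusted p = 2.74e-05).

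At the Tet3 intron 5 peak, present in all 11 lists, the LT-HSC and the DKO table list overlapping sites in opposite directions. At 3 d.p.i., chr6:83381551-83382350 held 382, 409 and 289 scaled reads in Daxx-KO LT-HSCs against 270.4 and 257 (0.43, SE 0.24, adjusted p = 1). In KLS cells at 3 w.p.i., chr6:83381401-83382450 held 68.9 and 90.9 in DKO against 162 and 135 (-0.89, adjusted p = 0.127, and 0.00733 after scaling to mean reads). These tables differ in cell type, time and genotype and were scaled separately, and their difference was not tested. In intron 2, a Daxx-WT KLS peak at chr6:83450351-83451450 was lower in DKO (66.8 and 56.2 against 115 and 113, -0.89, adjusted p = 0.13), and a nearby site without a KLS peak was the only higher Daxx-KO KLS site at the 10 genes (51.2, 63.9 and 58.3 against 28.3 and 37.8, 0.80, adjusted p = 0.688). The largest Tet3 differences in the Daxx-KO tables were lower values, 4.45, 8.75 and 9.41 against 22.8 and 22.9 upstream of the gene in KLS cells (-1.54, adjusted p = 0.284) and 25.7, 10.5 and 19.0 against 49.6 and 45.01 over exon 6 in LT-HSCs (-1.40, adjusted p = 0.322).

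**Figure D5:**
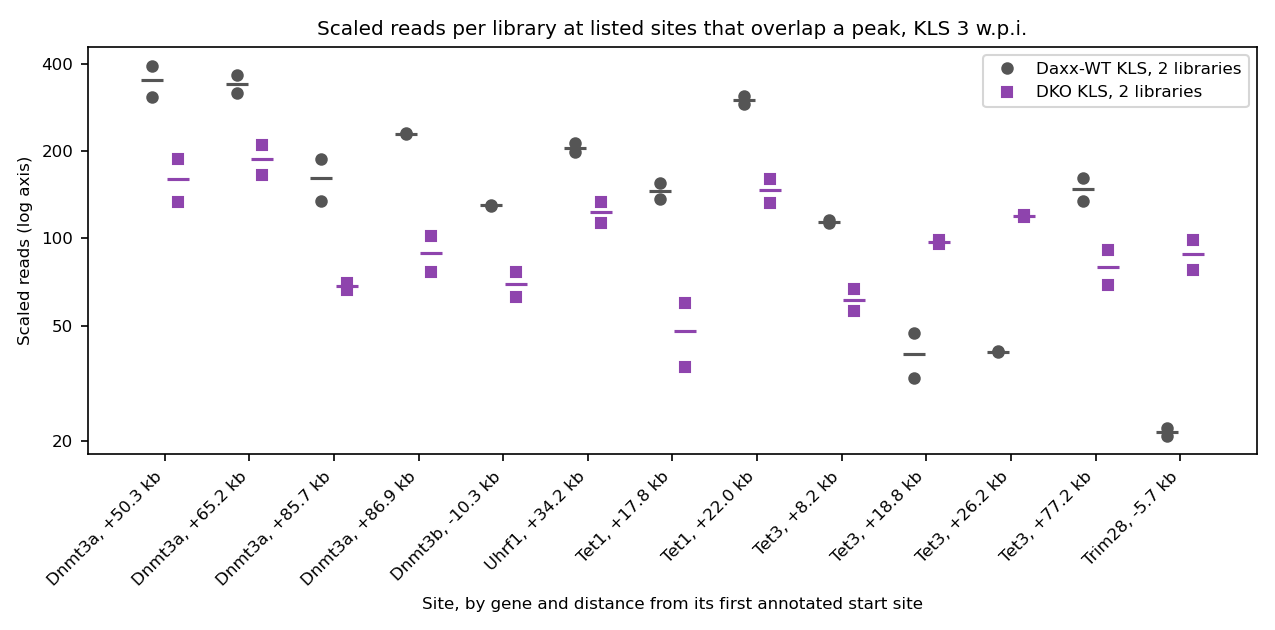
Scaled reads (log axis) in each DKO (squares) and Daxx-WT (circles) KLS library, with group means as lines, at the 13 DKO sites that overlap a peak of either group, named by gene and distance in kb from the first annotated start. Of these, 10 are lower in both DKO libraries, among them 4 in Dnmt3a and 2 in Tet1, and 3 are higher, 2 in Tet3 and 1 at Trim28.

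Among the H3K9 genes, Setdb1 (chr3:95323525-95357202, minus strand) had a promoter peak in all lists with 2 kinds of width, 1370 to 1527 bp in the LT-HSC and Daxx-WT CMP lists and 740 to 955 bp in the others. Its outer edge, at the start of the gene, varied by few bases and the inner edge set the width. Setdb1 had the fewest sites of the 10 genes, 1 higher in DKO (28.6 and 59.96 against 16.0 and 20.8, 1.14 higher, adjusted p = 0.018, near the promoter of Anxa9) and 1 lower at 3 d.p.i., 1.7 kb before the start (6.42, 9.54 and 19.0 against 31.6 and 31.0, -1.47, SE 0.39, adjusted p = 0.348). None was listed in Daxx-KO KLS cells.

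Trim28 (chr7:12999114-13031035, plus strand), the corepressor that links zinc-finger proteins to Setdb1, had its promoter peak over the start sites at 25.0 kb in all lists. The peak was 2216 to 2323 bp wide in 6 lists and split into 2 neighbouring peaks in the other 5, the wider being 1426 to 1486 bp. The DKO site at chr7:12992751-12994050, 5.7 kb before the first annotated start and inside Slc27a5, a bile acid metabolism gene, held 98.6 and 77.8 scaled reads against 22.2 and 20.8. It was 1.98 higher (adjusted p = 5.41e-06, and 0.0468 after scaling to mean reads) at a peak found in the DKO list and in no other. Without DKO library 1 or 2 it did not pass. The edge of this site also overlapped a peak region at chr7:12991962-12992788, present in 4 lists, none of them from KLS cells. The other 3 DKO sites were also higher, 1 of them over exon 9 (30.8 and 47.8 against 11.5 and 17.6, 1.37 higher, adjusted p = 0.00259). Downstream of the gene, 2 sites were lower in Daxx-KO KLS cells, 1 of them at the promoters of Chmp2a and Ube2m. The larger, at chr7:13041351-13041950, held 14.5, 3.50 and 10.3 against 28.3 and 25.2 (-1.58, adjusted p = 0.364).

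Ehmt2 (chr17:34898469-34914052, plus strand) lacked both of its promoter peaks in the DKO list and the first of them also in the Daxx-KO GMP list. Unlike at Tet1, no table lists a site at either position. The widths were small in most lists, 517 to 603 bp at the first start in CMPs, Daxx-WT GMPs and KLS cells, and 1245 and 2017 bp in Daxx-WT and Daxx-KO LT-HSCs at 3 d.p.i. This peak also covers the start of the neighbour C2, a complement gene on the other strand. All 5 Ehmt2 sites of the 3 tables lay outside the gene and over a neighbour. The lower DKO site, at chr17:34924451-34925050 in Slc44a4, held 13.8 and 25.3 against 49.7 and 42.8 (-1.26, adjusted p = 0.0069). The largest was higher, at chr17:34917001-34918050 near the Slc44a4 start (67.9 and 92.8 against 18.6 and 42.8, 1.45 higher, adjusted p = 0.00118, and 0.584 after scaling to mean reads). The higher site at 3 d.p.i., over a Slc44a4 peak, held 73.4, 106 and 95.01 against 57.5 and 48.8 (0.76, adjusted p = 0.663). Over C2 and Zbtb12, which overlap each other, a KLS site was lower with Daxx deleted (46.8, 37.6 and 43.3 against 57.5 and 89.4, -0.74, adjusted p = 1).

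Promoter peak width differed little between genotypes. A gene was called wider or narrower when its widest promoter peak differed by at least 1.5-fold. At 3 d.p.i. 2 of 10 genes were wider in Daxx-KO (3.98% of genes) and 0 narrower (1.13%), the wider ones being Ehmt2 (2017 against 1245 bp) and Trim28 (2265 against 1486 bp, where 2 Daxx-WT peaks correspond to 1 in Daxx-KO). In CMPs 1 was narrower (3.9% of genes), Setdb1 (752 against 1527 bp), and 0 wider (0.815%). Of the 8 genes with a peak in both the DKO and the Daxx-WT list, 1 was narrower (12.2% of genes), Dnmt3a (748 against 2303 bp, through the missing internal peak), and 0 wider (0.953%). The other pairs had 0 wider and 0 narrower, against 3.25% and 0.678% of genes in LT-HSCs, 1.64% and 3.76% in GMPs and 6.21% and 0.829% in Daxx-KO KLS cells. The median log2 ratio of widths over the 10 genes was 0.01 in LT-HSCs, -0.07 in CMPs, -0.03 in GMPs, 0.06 at 3 d.p.i. and 0.04 for the Daxx-KO KLS list, close to the medians over all genes (0.03, -0.04, -0.04, 0.04 and 0.07). For the 8 genes in DKO it was -0.02 against -0.15.

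Peaks found in 1 list of a pair alone were counted next. In CMPs 19 of 79 Daxx-WT peaks had no Daxx-KO peak (24.1%, exact 95% interval 15.1 to 34.98%, against 28.5% of all peaks), and in GMPs 16 of 84 did (19.0%, 11.3 to 29.1%, against 27.6%). The reverse was 5 of 66 in CMPs (6.26% of all peaks) and 0 of 68 in GMPs, which allows up to 5.28% (4.55% of all peaks). In both progenitors the Daxx-KO list was the shorter. At 3 d.p.i. 10 of 60 Daxx-KO peaks and 2 of 54 Daxx-WT peaks were alone (24.1% and 8.68% of all peaks). For KLS cells these were 12 of 56 and 3 of 48 (31.8% and 8.06%). In both, the Daxx-KO list was the longer. In LT-HSCs 7 of 84 Daxx-KO and 5 of 81 Daxx-WT peaks were alone (13.9% and 6.78%). For DKO, 15 of 48 Daxx-WT peaks had no DKO peak (31.2%, 18.7 to 46.3%, against 48.4% of all peaks) and 5 of 39 DKO peaks had no Daxx-WT peak (12.8%, 4.30 to 27.4%, against 21.4%). The intervals cover counting error only. No share at these genes lay above the share of all peaks by more than its interval. Only for Daxx-WT KLS peaks without a DKO peak did the interval end below the share of all peaks. Neighbouring peaks of 1 list are not independent draws, so this is no test of a difference. That count also fell when the lists were cut to equal numbers of peaks, as given below.

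The other 46 genes of the pathway, which comprise readers of methylated DNA, further H3K9 methyltransferases and demethylases, HP1 proteins and corepressor subunits, gave a background of related genes. In LT-HSCs 21 of 46 had a site, 13 sites higher and 22 lower in Daxx-KO. For Daxx-KO KLS cells 32 had one, with 8 sites higher and 49 lower, and 0 of these sites passed limma in either table. In DKO cells 43 of 46 had one, 162 sites higher and 21 lower, and 152 and 11 passed (14 and 21 after scaling to mean reads). Within 1000 bp of a start site, DKO sites were higher at 12 of the 46, among them Hdac1, Chd4 and Kdm1a, which encode subunits of corepressor complexes, and lower at Cbx5, which encodes an HP1 protein. Of the 10 genes, 5 had a higher site that close to a start (14.6% of protein-coding genes) and 2, Tet1 and Dnmt3a, a lower one (15.1%). The 5 genes have 5 to 18 annotated start sites each, and the shares were not matched for the number of start sites. After scaling to mean reads none of these higher sites passed limma (lowest adjusted p 0.11), whereas the lower ones did. Kdm4b is both a gene of this list and a neighbour of Uhrf1, so their sites are in part the same.

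Sequence features were compared at the 48 Daxx-WT KLS summit windows of 300 bases at the 10 genes. The 10 windows of peaks with a site lower in DKO had a median of 4 CG dinucleotides and the other 38 a median of 21.5. Over the whole list, the 9853 windows with a site lower in DKO had a median of 5. The 22508 windows with no listed DKO site had a median of 9, and all 33325 windows 7. The 38 lack a lower site but can include a peak with a higher one, so no median of the list matches them exactly. The letters GGAAGT or ACTTCC occurred in 6 of the 10 windows and in 9 of the 38, against 43.8% of all 9853 windows with a site lower in DKO and 35.4% of all 33325 windows. The longer GAGGAAGT, which contains GGAAGT, occurred in 0 of the 10, against 13.8% and 8.1%. The letters GGGCGG, the core of the GC box, occurred in 0 of the 10 and in 20 of the 38, against 24.8% and 34.6%. The summit windows of peaks lower in DKO at these genes thus held fewer CG dinucleotides, by median, than the other windows. This holds for the summit windows and not for each whole site. The lower DKO sites over the Tet1 promoter and the internal Dnmt3a start sites held 4.95 and 5.07 CG per 100 bases. The median of the 16 lower sites was 0.98. Promoter and distal windows were not compared separately.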

How the data were processed

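The authors deposited 11 peak lists, 1 per group, and 3 tables of differential sites on mm10; their processing notes name CASAVA 1.8.4, cutadapt 1.13, STAR 2.5.3 and bedtools without a role. Peak caller and aligner settings, including any Tn5 shift, are not given in the sources used here. Of the lists, 6 hold positions alone. The other 5, reproducible peaks by irreproducible discovery rate, carry a score, a fold enrichment over background and a −log10 q-value, all as deposited by the authors. According to the file headers, the authors made the tables with diffReps 1.55.6 in 600-bp windows moved by 50 bp, and the values are signal, that is, reads of each library divided by a constant of that library. The authors' group means, fold changes and p-values in these tables were not used. Multiplying by the constants gave whole reads, within 0.15, for 100% of values below 20 reads, with 4.21 to 16.0 reads per window on average; this depth limits precision, and intervals cover counting error only.

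Peaks and sites were assigned to genes, with 20 kb on either side, by GENCODE M21 in Python 3.11.15. Listed sites were fitted with limma 3.58.1 in R 4.3.3 on log2(scaled reads + 1), one fit per table, with p adjusted over the 413247, 407030 or 446463 windows of the headers and called at 0.05. Other scalings, pseudocounts, filters, definitions and left-out libraries were tried. The fit was tested on simulated data. The genes and lists were chosen with earlier results of these data known. All 10 genes are named, with values for sites at a peak, within 1000 bp of a start site or largest at a gene in a table; pathway genes are named for a site near a start or for a promoter peak pattern over the lists, and those missing a peak were named after their values were seen. All 24 libraries belong to a group, and library numbers of the 3 d.p.i. table follow its header.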

Additional observations from a re-analysis of the deposited data

How the results depend on the processing

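No site at these genes changed its direction. The groups did not overlap at any of these sites, so leaving out a library, another pseudocount or a filter could not reverse the direction. Of the values recomputed for the counts of passing sites, 22 of 31 stayed within 1.5 times the reported count. The reported count was 0 in both Daxx-KO comparisons, where a repeated 0 counted as staying, and 66 for DKO. The number passing limma was 11 at 3 d.p.i. and 29 for Daxx-KO KLS with p adjusted over the listed sites alone (95.8% and 96.5% of all listed sites), and 10 and 19 with voom weights (67% and 66.2%), an alternative chosen after seeing the data; for DKO it was 19 after scaling to mean reads (33.7%). Leaving out 1 library gave 0 to 0, 0 to 0 and 0 to 51. With the replicate block, 4 sites passed in Daxx-KO KLS cells (13.3% of all) and 68 in DKO (83.7%); same-numbered libraries share only a number, with correlations of 0.008 and 0.052, and of -0.003 for both DKO pairs. For LT-HSCs at 3 d.p.i. no block was fitted, since the header gives no library numbers. The 2 planned count tests on recovered reads were not run.

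Counting sites at a peak alone left 0 lower sites at 3 d.p.i., 0 higher and 0 lower for Daxx-KO KLS, and 3 higher and 10 lower in DKO. At an absolute log2 difference of at least 1, 0 higher sites were left at 3 d.p.i., 0 higher in Daxx-KO KLS cells and 9 lower in DKO. With the scored lists cut to equal numbers of peaks, 5 genes had a promoter peak in Daxx-KO KLS cells, which alone moved among the 32 values. For peaks in 1 list alone, 20 of 36 values stayed. With 5 kb around the genes the counts were 3 (Daxx-WT LT-HSC), 2 (Daxx-KO CMP), 10 (Daxx-WT CMP), 10 (Daxx-WT GMP), 4 (Daxx-KO LT-HSC at 3 d.p.i.), 7 (Daxx-KO KLS), 3 (DKO) and 8 (Daxx-WT KLS without DKO), where fewer peaks were counted. At equal numbers of peaks they were 2 (Daxx-KO LT-HSC at 3 d.p.i.), 1 (Daxx-KO KLS), 9 (Daxx-WT KLS without Daxx-KO), 8 (DKO) and 4 (Daxx-WT KLS without DKO). At a score of at least 540 they were 1 (Daxx-WT KLS without Daxx-KO), 3 (DKO) and 9 (Daxx-WT KLS without DKO). The cause of these differences was not tested. All 6 median widths stayed within the spread.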
